A study of Mus musculus with 12 samples.

Results

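Dot1l and Mllt10 were measured by 1 probe set each on Affymetrix MG-U74B arrays of the mouse hippocampus, namely 115129_at for Dot1l and 163315_at for Mllt10. These 2 probe sets were all those annotated to either gene alone, out of 12411 probe sets that were no array controls, and both passed the filter on low values. The annotation holds 7542 genes by single symbols, of which these are 2. The pair was chosen by its change after kainate in control animals in earlier results of the same arrays, where Dot1l was higher and Mllt10 lower. That contrast is therefore described without a test, and tests are kept for the contrasts that did not choose the genes. Of those, only kainate against saline in animals labelled mutant shares no arrays with the control contrast. Kainate, an agonist of glutamate receptors that evokes seizures, was injected intraperitoneally at 20 mg/kg, with saline as its control, and hippocampi were taken 1 h later. The 4 groups were animals labelled mutant with kainate, animals labelled mutant with saline, control animals with kainate and control animals with saline, with 3 arrays in each. All animals were male and female littermates of 5 to 6 weeks, and each array carried RNA pooled from 3 of them. Handling for 5 days is listed for the animals of all 4 groups. The series title gives the mutation as a loss of CREB and CREM, transcription factors that respond to cAMP. The strain, the alleles and the cells in which the genes were lost are not stated in the labels.

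DOT1L is the enzyme that methylates histone H3 at the lysine called H3K79, a mark found along the bodies of transcribed genes, and unlike most histone lysine methyltransferases it has no SET domain. MLLT10, also called AF10, binds DOT1L through a leucine zipper region and recognises histone H3 through its PHD finger module, and it is needed for the higher methylation states of H3K79. Both proteins are best known from leukaemias with MLL or MLLT10 fusions, and H3K79 methylation also takes part in the differentiation of cortical neurons.

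The start regions of both genes are shown because the series concerns CREB, which binds the cAMP response element TGACGTCA and its shorter core TGACG. Each window runs from 250 bases before to 50 bases after a RefSeq start on build GRCm38.p6, on the plus strand, and capitals mark the core. RefSeq listed 1 window for Dot1l and 3 for Mllt10, and the first Mllt10 window, without a core, is left out.
Dot1l, chr10:80754953-80755252: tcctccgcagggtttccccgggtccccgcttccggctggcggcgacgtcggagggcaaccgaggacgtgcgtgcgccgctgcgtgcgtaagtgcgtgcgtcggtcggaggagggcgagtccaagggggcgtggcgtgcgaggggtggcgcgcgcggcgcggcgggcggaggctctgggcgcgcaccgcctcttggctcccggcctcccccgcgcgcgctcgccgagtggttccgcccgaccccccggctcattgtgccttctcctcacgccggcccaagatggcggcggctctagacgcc
Mllt10, chr2:18055478-18055777: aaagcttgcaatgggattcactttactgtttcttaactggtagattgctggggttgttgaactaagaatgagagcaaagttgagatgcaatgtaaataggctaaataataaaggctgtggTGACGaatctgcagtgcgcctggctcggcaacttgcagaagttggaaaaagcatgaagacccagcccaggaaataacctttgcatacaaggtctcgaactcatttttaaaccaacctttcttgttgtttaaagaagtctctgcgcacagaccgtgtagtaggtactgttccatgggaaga
Mllt10, chr2:18064335-18064634: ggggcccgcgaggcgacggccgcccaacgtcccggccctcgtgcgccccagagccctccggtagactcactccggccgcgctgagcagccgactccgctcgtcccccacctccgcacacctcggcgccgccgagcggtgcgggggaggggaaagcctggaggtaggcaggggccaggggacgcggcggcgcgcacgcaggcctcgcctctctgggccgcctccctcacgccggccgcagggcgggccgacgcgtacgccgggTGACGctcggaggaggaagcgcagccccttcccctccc
The Dot1l window held no core on either strand. Each Mllt10 window shown held 1 core on the strand shown, starting at base 121 in the upstream one and at base 263 in the downstream one. Among 32851 RefSeq windows of 300 bases, 20.8% held the core and 1.79% held the full element, which was found in none of the 4 windows of these genes. The AP-1 motif TGANTCA (7.81% of windows) and the EGR motif GCGTGGGCG (0.612% of windows), searched on both strands, were not found in them either. The Dot1l window and the downstream Mllt10 window were rich in G and C, at 76.3% and 78.3% against a median of 52.7% over all windows, with 49 and 43 CG dinucleotides. The upstream Mllt10 window had 42.7% G and C and 6 CG dinucleotides, so the listed starts of Mllt10 lie in sequence of both kinds. These matches describe letters in the windows and not binding.

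Values are GCRMA summaries on a log2 scale, so a difference of 1 is a doubling of signal. Array medians lay between 3.77 and 4.07. The 4 group means were estimated from the 12 arrays together for 6334 probe sets, those that exceeded 4 on 3 or more arrays, and a call means an adjusted p under 0.05 over all of them. Arrays numbered 1 stood apart from the rest on the first principal component, which took 52.8% of the variance, and the differences of both genes are given with and without them. Markers of hippocampal principal neurons were present, with a log2 sum of 11.02 to 11.49 over the 4 tested. The Creb1 probe set was higher in arrays labelled mutant than in control arrays, by 0.99 with kainate and by 0.89 with saline (limma adjusted p = 0.391 and 0.523), and the Crem probe set was below the filter. Whether these probes lie in the deleted sequence is not stated in the sources used here, so they do not check the loss of the proteins, and the groups keep the name labelled mutant.

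Dot1l was higher after kainate than after saline in both genotypes, and its saline levels in the genotypes were nearly equal. In arrays labelled mutant its log2 values with kainate were 5.21, 5.86 and 5.42. With saline they were 4.82, 4.53 and 4.93, so every kainate array lay above every saline array. In control arrays Dot1l had log2 values of 5.77, 6.05 and 5.98 with kainate, against 4.72, 5.04 and 4.53 with saline, again without overlap. The order of the group means was control kainate at 5.93 ± 0.15 (SD, n = 3), labelled mutant kainate at 5.50 ± 0.33, control saline at 4.76 ± 0.26 and labelled mutant saline at 4.76 ± 0.20. The values of the 2 kainate groups overlapped, and so did those of the 2 saline groups. All 12 arrays were above the filter level of 4.

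Mllt10 was lower with kainate than with saline in control arrays, and in arrays labelled mutant the kainate and saline values overlapped. In arrays labelled mutant its log2 values with kainate were 5.75, 3.86 and 3.92. With saline they were 5.72, 4.50 and 4.03, so that the array numbered 1 stood above the other two in each group. In control arrays Mllt10 had log2 values of 4.21, 3.67 and 2.37 with kainate, against 5.75, 4.77 and 4.62 with saline, and here the groups did not overlap. The order of the group means was control saline at 5.05 ± 0.61 (SD, n = 3), labelled mutant saline at 4.75 ± 0.87, labelled mutant kainate at 4.51 ± 1.07 and control kainate at 3.42 ± 0.94, and each group overlapped with its neighbours in this order. Only 1 of 3 arrays passed 4 in each kainate group, against 3 of 3 in each saline group. The SD within each group was larger than that of Dot1l.

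**Figure D1:**
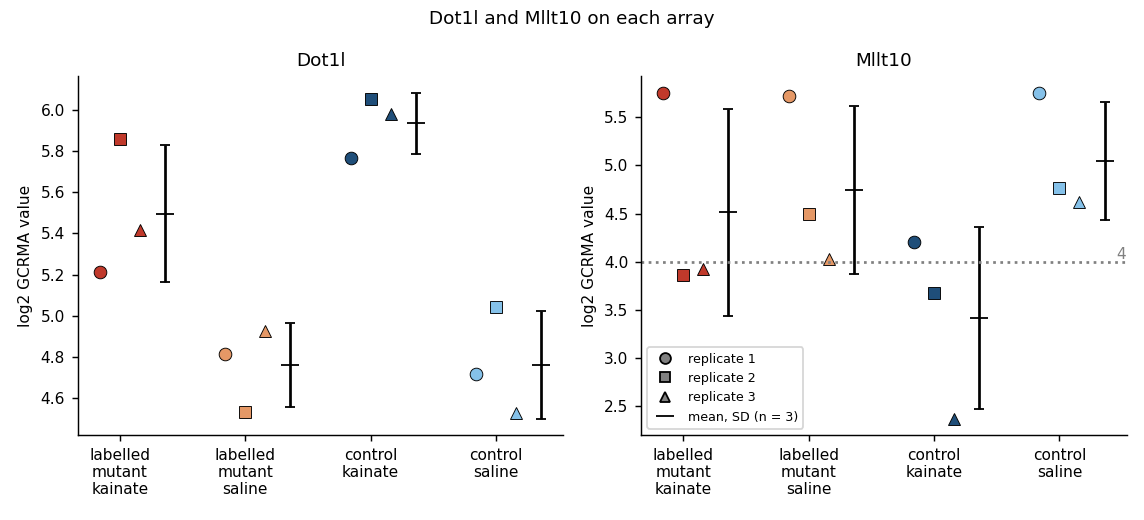
Log2 GCRMA values (vertical axes) of Dot1l and Mllt10 on each of the 12 arrays by group, with symbols for the replicate number, bars for the mean and SD of 3 arrays and a dotted line at the filter level of 4. The kainate arrays of Dot1l lie above the saline arrays in both genotypes, while Mllt10 is separated in control arrays alone, and its arrays numbered 1 are the highest of each group.

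In control animals, the contrast on which the genes were chosen, Dot1l was 2.25-fold higher with kainate, a log2 difference of 1.17 (SE 0.19), and Mllt10 was lower by a log2 difference of -1.63 (SE 0.64). No fold is given for Mllt10, because only 1 of 3 control kainate arrays exceeded 4 and their mean of 3.42 lay below every array median. The choice rested on the fit with the replicate number as a block, where the adjusted p was 0.0197 for Dot1l and 0.0188 for Mllt10 and 0.584% of probe sets were called. Without the block, where 0.158% were called, neither gene was. These p-values state how the genes were found and are no test of them. As background, kainate arrays lay wholly above saline arrays for 13.1% of probe sets and wholly below them for 6.27%. With numbers 2 and 3 alone the differences were 1.23 for Dot1l and -1.67 for Mllt10. Between arrays of the same number, Dot1l differed by 1.05, 1.01 and 1.45 and Mllt10 by -1.54, -1.09 and -2.25. Of the 6334 probe sets tested, 12 were higher by as much as Dot1l or more and 2 were lower by as much as Mllt10 or more, each count including the gene itself.

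In arrays labelled mutant, whose kainate difference played no part in the choice, Dot1l was 1.67-fold higher with kainate. The spread was estimated from all 12 arrays together, so this comparison shares it with the control contrast. The log2 difference was 0.74 (SE 0.19, 95% interval 0.31 to 1.16). It did not pass over all probe sets by limma (adjusted p = 0.468), nor with number as a block (adjusted p = 0.122). In this comparison 0.174% of probe sets were called, or 0.363% with the block, and 58 of 6334 probe sets (0.916%) were higher by at least as much. The difference was above 0 in all 3 numbers, at 0.39, 1.33 and 0.49, and number 2 was the largest. Non-overlapping groups with kainate higher, as seen for Dot1l, occurred for 3.66% of probe sets in these arrays and in both genotypes together for 1.45%. With the arrays numbered 2 and 3 alone, a choice made after the data were seen, the difference was 0.91 and passed (limma adjusted p = 0.0344), in a fit that called 9.41% of all probe sets, or 11.5% with the block.

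Mllt10 differed by -0.24 with kainate in arrays labelled mutant (SE 0.64, 95% interval -1.65 to 1.18, limma adjusted p = 0.978). With the block the interval was -0.76 to 0.29 (adjusted p = 0.703). Between arrays of the same number it differed by 0.04, -0.64 and -0.11, which is not larger than the spread between numbers. The sign turned when a single array was left out, to 0.25 without labelled mutant saline replicate 1, to 0.091 without labelled mutant kainate replicate 2 and to 0.059 without labelled mutant kainate replicate 3. With numbers 2 and 3 alone it was -0.37 (adjusted p = 0.613). No direction can be given for Mllt10 in these arrays.

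**Figure D2:**
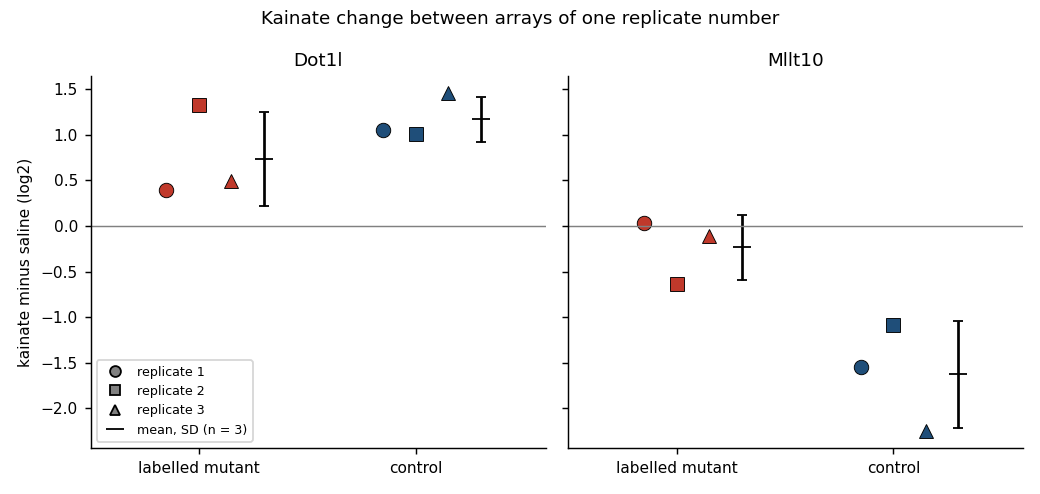
Kainate minus saline (log2, vertical axis) between arrays of the same replicate number, for Dot1l and Mllt10, in arrays labelled mutant and in control arrays, with the mean and SD over 3 numbers. Dot1l is above 0 in all 6 cases, and Mllt10 lies between -2.25 and -1.09 in control arrays and between -0.64 and 0.04 in arrays labelled mutant.

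The series asked whether the kainate response depended on CREB and CREM. For Dot1l the response was smaller by 0.43 on the log2 scale in arrays labelled mutant (-0.43, SE 0.27, 95% interval -1.04 to 0.17), and its sign differed between numbers, at -0.65, 0.32 and -0.97. For Mllt10 the difference of responses was 1.39 (SE 0.91, 95% interval -0.61 to 3.40), at 1.58, 0.46 and 2.14 by number. With the block the 95% intervals were -0.98 to 0.12 for Dot1l and 0.64 to 2.14 for Mllt10, the latter wholly above 0. With arrays centred on their medians the Dot1l value was -0.24, and the Mllt10 value was 0.77 without labelled mutant kainate replicate 1 and 0.87 without control kainate replicate 3. Neither passed by limma (adjusted p = 1.00 for both), nor with the block (0.615 for Dot1l and 0.545 for Mllt10). Of all probe sets 0.0% were called, with 147 at an unadjusted p under 0.05, or 566 with the block, which also gave 0 calls. Both differences contain the control contrast for which the genes were picked, under the block used for that choice, so their size is partly fixed by it and the p-values are no independent test. With numbers 2 and 3 alone they were -0.32 for Dot1l and 1.30 for Mllt10.

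Between genotypes after kainate, Dot1l was lower in arrays labelled mutant by 0.44 (-0.44, SE 0.19, 95% interval -0.86 to -0.01), 1.35-fold, with all 3 numbers below 0 at -0.56, -0.19 and -0.56. Mllt10 was higher by 1.09 (SE 0.64, 95% interval -0.32 to 2.51) between groups with 1 of 3 arrays over 4 each, at 1.55, 0.19 and 1.55 by number, and by 0.47 without labelled mutant kainate replicate 1 or 0.57 without control kainate replicate 3. With the block the 95% intervals were -0.83 to -0.05 for Dot1l and 0.56 to 1.62 for Mllt10. With numbers 2 and 3 alone the differences were -0.38 for Dot1l and 0.87 for Mllt10. Neither passed by limma (adjusted p = 0.914 for both) or with the block (0.330 for Dot1l and 0.112 for Mllt10), and 0.0632% of probe sets were called, or 0.111% with the block. After saline the differences were -0.004 for Dot1l (95% interval -0.43 to 0.42) and -0.30 for Mllt10 (95% interval -1.72 to 1.12), or -0.06 and -0.43 with numbers 2 and 3 alone. Neither passed (limma adjusted p = 1.00 for both; 0.996 and 0.708 with the block), in a comparison where limma called 0.0% of probe sets, 0.142% with the block, and 246 had an unadjusted p under 0.05. At rest the interval for Dot1l is narrower than that for Mllt10, which varied more within groups. The kainate and the saline comparison share their control arrays with the contrast that chose the genes. Their signs and sizes are therefore partly fixed by the choice, and their intervals and p-values are no independent test.

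**Figure D3:**
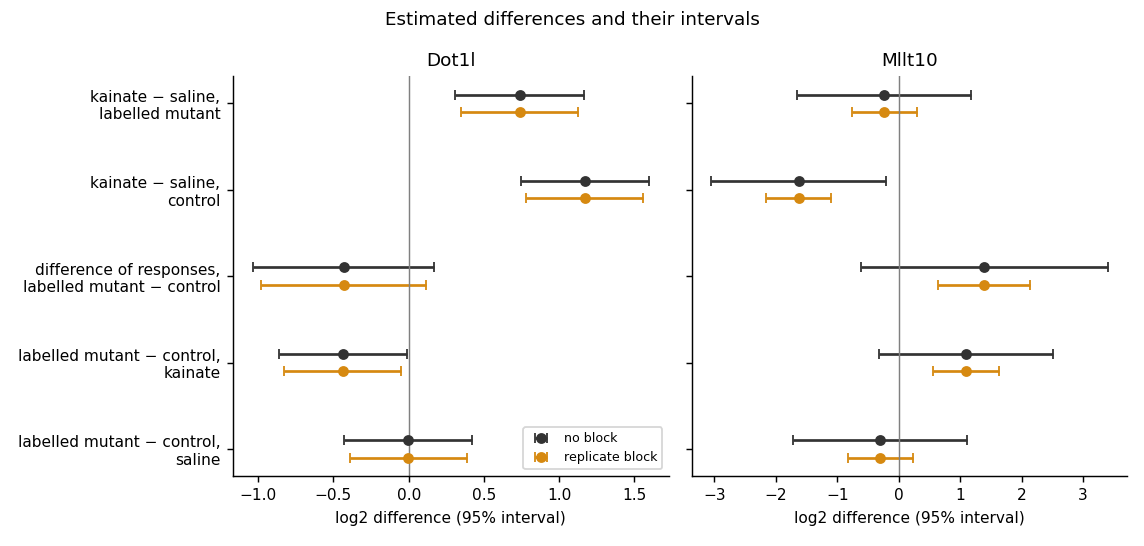
Log2 differences (horizontal axes) of Dot1l and Mllt10 in the 5 comparisons with 95% intervals, without a block and with the replicate number as a block. The block narrows the intervals of Mllt10 and changes those of Dot1l little. For kainate in arrays labelled mutant, that of Mllt10 goes from between -1.65 and 1.18 to between -0.76 and 0.29. For the difference of responses it goes from between -0.61 and 3.40 to between 0.64 and 2.14. Intervals of the control contrast and of the difference of responses draw on the values that chose the genes. Those between genotypes draw on the control arrays of that contrast.

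Mllt10 followed the replicate number more than Dot1l did. Outside control kainate, its 3 arrays numbered 1 lay between 5.72 and 5.75, above those numbered 2 (3.86 to 4.77) and those numbered 3 (3.92 to 4.62). Dot1l averaged 5.13, 5.37 and 5.21 over the 4 arrays of numbers 1, 2 and 3. The arrays numbered 1 also had the lowest signal of a spiked control, BioB, at 7.27 to 7.69 against 8.84 to 10.06 and 9.02 to 9.67 for the other numbers, and the lowest Gapdh 3′ minus 5′ difference, at -0.42 to -0.36 against -0.27 to -0.03 and -0.33 to -0.19. Actin 3′ minus 5′ differences overlapped between the numbers. The part of these technical measures in the Mllt10 values was not tested.

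Markers of 2 cell types, like Mllt10, had control kainate arrays wholly below control saline arrays and overlapped in arrays labelled mutant. These 2 were picked from the cell type lists for this likeness. As background, 397 of the 6334 probe sets tested (6.27%) lay wholly lower with kainate in control arrays. Of these, 104 were wholly lower in arrays labelled mutant too. Of 10 interneuron markers listed, 4 were on the array and 3 passed the filter, namely Gad2, which makes GABA, the cannabinoid receptor gene Cnr1 and the transcription factor gene Maf. The log2 of their summed signal was 10.28 to 10.45 in control kainate arrays and 10.70 to 10.97 in control saline arrays, without overlap, and 10.37 to 10.82 and 10.51 to 10.89 in labelled mutant kainate and saline arrays. Of 8 choroid plexus markers 1 was on the array, the chloride channel gene Clic6, with 4.19 to 5.76 in control kainate arrays against 6.28 to 6.72 in control saline arrays, and 5.08 to 6.83 against 5.30 to 7.02 in those labelled mutant. Gad2, Cnr1 and Maf differed with kainate by -1.26, -0.44 and -0.70 in control arrays. In arrays labelled mutant they differed by -0.84, -0.12 and -0.29, so all 3 were below 0 there too. Clic6 differed by -1.54 in control arrays and by -0.39 in arrays labelled mutant, and none of these 4 genes passed in either genotype (limma). In pooled tissue, fewer cells of a type and less RNA per cell cannot be told apart, and the part of cell composition in the Mllt10 values was not tested.

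**Figure D4:**
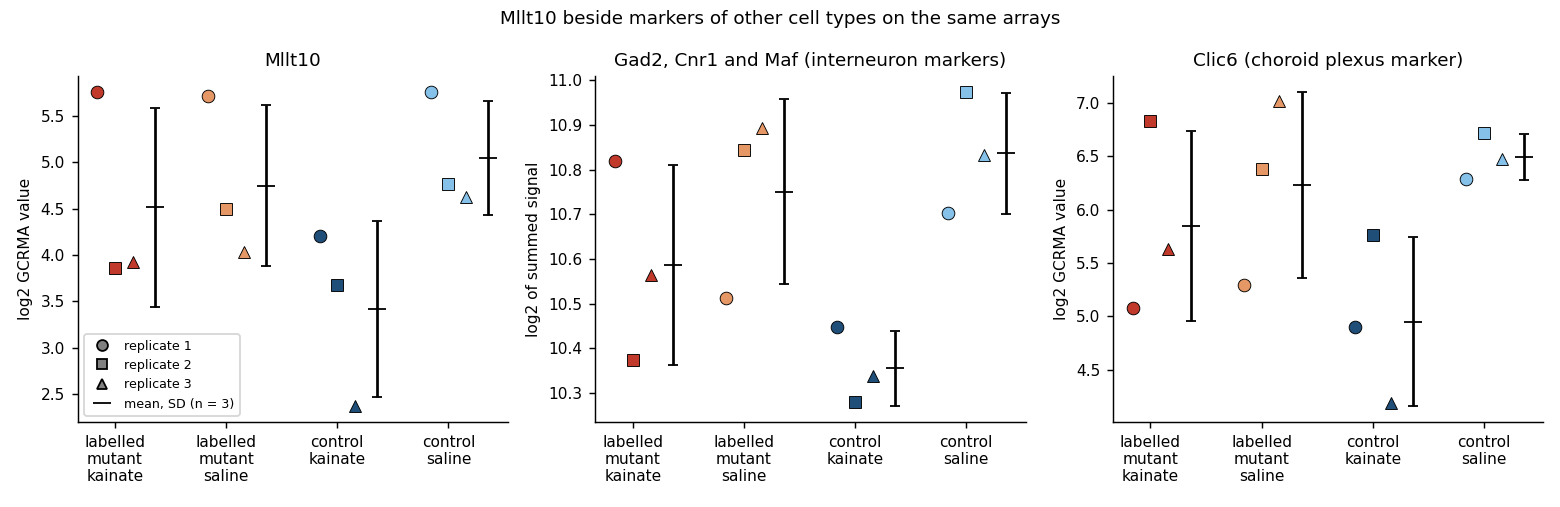
Log2 values (vertical axes) of Mllt10, the log2 of the summed signal of Gad2, Cnr1 and Maf, and the log2 value of Clic6 on each array by group, with the mean and SD of 3 arrays. In all 3 panels the control kainate arrays lie below the control saline arrays, and the groups labelled mutant overlap.

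The 5 microglia markers tested were at a log2 sum of 9.22 to 9.62 in labelled mutant kainate arrays against 8.72 to 8.74 in control kainate arrays, and at 9.00 to 9.42 in labelled mutant saline against 8.57 to 8.73 in control saline arrays. The 4 principal neuron markers tested were at 11.17 to 11.23 in labelled mutant kainate against 11.44 to 11.49 in control kainate arrays, and at 11.02 to 11.36 in labelled mutant saline against 11.15 to 11.45 in control saline arrays, where the groups overlapped. The 7 astrocyte markers tested were at 13.76 to 13.83 in labelled mutant kainate against 13.51 to 13.72 in control kainate arrays, and at 13.84 to 13.95 in labelled mutant saline against 13.64 to 13.70 in control saline arrays. Microglia and astrocyte sums thus did not overlap between genotypes with either treatment, and principal neuron sums did not overlap with kainate. As background, arrays labelled mutant lay wholly above control arrays for 3.09% of single probe sets with kainate and 4.48% with saline. They lay wholly below for 7.63% and 4.33%. Not every marker went with its sum. With kainate 6 astrocyte markers were higher in arrays labelled mutant and 1, Aldoc, was lower (-0.19). All 5 microglia markers were higher with either treatment, but unevenly. They ran from 0.02 for Tmem119 to 1.34 for Plek with kainate, and from 0.17 to 1.13 for the same genes with saline. The principal neuron marker Slc17a7 differed by only -0.06 with kainate and 0.07 with saline. None of the 16 marker genes passed between genotypes without the block, and with it Bcl11b was lower with saline (-0.91, adjusted p = 0.0423). Their part in the Dot1l values was not tested.

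The patterns most like that of Dot1l included early genes that were higher with kainate. Dot1l was itself chosen for being higher with kainate in control arrays, so matches to genes of that kind are partly fixed by the choice. Csrnp1, Ciart and Fosl2, named below, were also known from earlier results of these arrays. Over 12 arrays, after the mean of each replicate number was subtracted, the highest Pearson correlations among 5924 other probe sets were those of Csrnp1 (r = 0.94), an immediate early nuclear factor gene, Ciart (r = 0.93), a circadian repressor gene, and Mapkbp1 (r = 0.93), which encodes a scaffold of kinase signalling. Csrnp1 differed by 2.04 in arrays labelled mutant and by 2.34 in control arrays with kainate, Ciart by 1.11 and 1.81, and Mapkbp1 by only 0.10 and 0.17. Csrnp1 and Ciart were also the first and second on the values as deposited, where Fosl2, a subunit of AP-1, took the place of Mapkbp1. The most opposite pattern was that of Abhd17c (r = -0.98), a depalmitoylating enzyme gene, at -0.34 and -0.69, which was at r = -0.63 and not the most opposite on the values as deposited.

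The patterns most like that of Mllt10 belonged to Ro60 (r = 0.95), which encodes an RNA-binding protein, Stim2 (r = 0.94), an endoplasmic reticulum calcium sensor gene, and Sestd1 (r = 0.92), which encodes a phospholipid-binding protein. Their kainate differences were smaller than that of Mllt10, at -0.18, -0.14 and 0.00 in arrays labelled mutant and at -0.55, -0.48 and -0.67 in control arrays. On the values as deposited, Sestd1 and Stim2 were again the top pair and Phax came next, while Ro60 ranked 248. The most opposite was Ubtf (r = -0.93), a factor of ribosomal RNA transcription, which was at r = -0.60 and not the most opposite on the values as deposited. These correlations were picked as the highest of many and are given as descriptions without a p, over arrays that share treatments, genotypes and replicate numbers. For both genes they cover the control arrays whose kainate difference chose the pair, so they are no independent support.

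No related gene passed for kainate in either genotype, where at most 0.584% of all probe sets did. Of 18 symbols listed for partners of DOT1L, in the MLL fusion and elongation complexes, 9 were on the array and 7 were tested. With kainate 0 of 7 passed in either genotype by limma, with or without the block, against the 0.174% and 0.158% of all probe sets given above, and the median difference was -0.07 in arrays labelled mutant and -0.14 in control arrays, beside -0.04 and 0.02 over all probe sets tested. The largest in arrays labelled mutant was Aff4, a scaffold of the super elongation complex, at -0.73 (-0.62 in control arrays). Mllt3, whose product AF9 binds DOT1L directly, was at -0.70 and -0.30 (limma adjusted p = 0.314 and 0.431), and Mllt6, which encodes the MLLT10 relative AF17, at 0.22 and 0.10 (0.816 and 0.700). These 2 are named for their relation to the pair and not by the rule for named genes.

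Among 8 tested genes with PHD modules related to that of AF10, 7 lay above 0 in each genotype and 0 passed. Of all probe sets tested, 41.7% lay above 0 in arrays labelled mutant and 53.3% in control arrays. The medians of the list were 0.17 in arrays labelled mutant and 0.11 in control arrays. Brd1, a subunit of histone acetyltransferase complexes, was the largest in arrays labelled mutant at 0.27. In control arrays it was at 0.13 and Phf14 at 0.37. Of 7 tested genes of pause release and the PAF1 complex, which couple elongation to histone marks, 0 passed. The largest in arrays labelled mutant was Rtf1 at 0.42, with its other probe sets at -0.04 and -0.06 there. Of 3 tested genes of H2B ubiquitination, a mark that stimulates DOT1L, 0 passed, and Ube2b, a ubiquitin-conjugating enzyme gene, was at 0.45 in arrays labelled mutant and at -0.19 in control arrays. Of 12 other histone lysine methyltransferase genes tested, 0 passed, with medians of -0.15 in arrays labelled mutant and -0.004 in control arrays. The largest in arrays labelled mutant was Kmt2d, a methyltransferase of histone H3 lysine 4, at 1.20 (SE 0.48, limma adjusted p = 0.723). It was at 0.10 in control arrays. Counts by unadjusted p under 0.05 over all probe sets were 398 in arrays labelled mutant and 737 in control arrays. No gene of these 5 lists passed in any of the 5 comparisons, with or without the block. At most 0.584% of all probe sets were called in any of them. The absence of calls in lists this short is near that share and is no result about these genes.

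**Figure D5:**
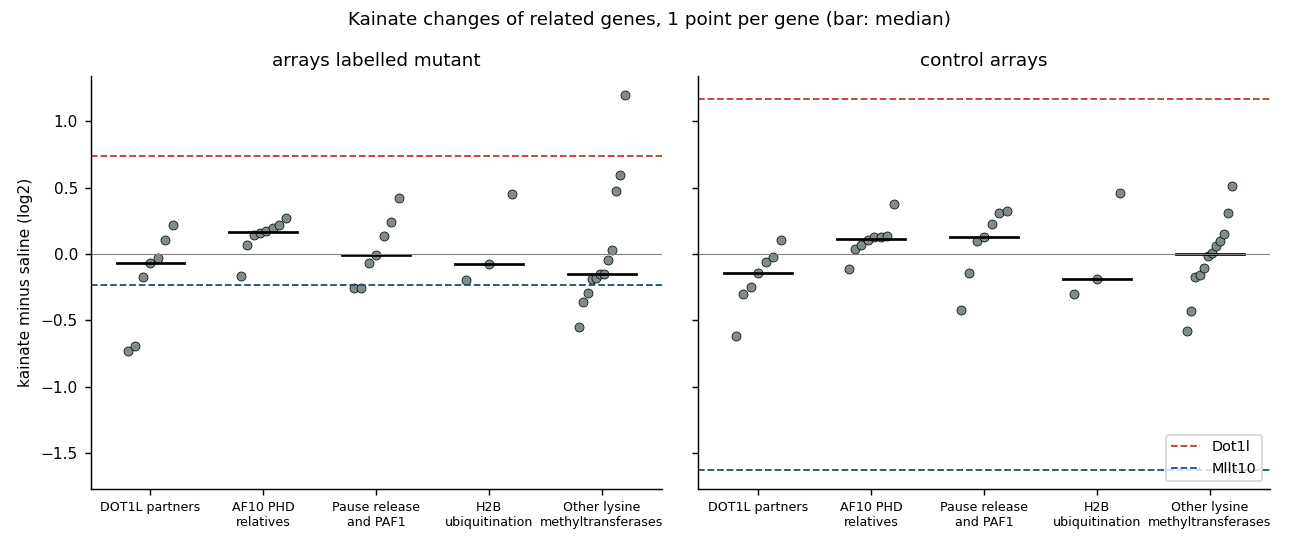
Kainate minus saline (log2, vertical axis) for the tested genes of 5 lists, 1 point per gene with a bar at the median, in arrays labelled mutant and in control arrays, with dashed lines at the values of Dot1l and Mllt10. In control arrays no listed gene reaches the 1.17 of Dot1l or the -1.63 of Mllt10, and in arrays labelled mutant Kmt2d at 1.20 is the one gene above the 0.74 of Dot1l. Several listed genes lie below the -0.24 of Mllt10 in arrays labelled mutant, such as Aff4 at -0.73 and Mllt3 at -0.70.

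Neighbouring genes gave little to compare. By the order of genes in RefSeq, Dot1l lies between Ap3d1 and Plekhj1 and Mllt10 between Skida1 and Dnajc1, and of these 4 protein-coding genes only Dnajc1, which encodes a chaperone of the endoplasmic reticulum, had probe sets among those named here. Its tested probe set differed by -0.03 with kainate in arrays labelled mutant and by -0.03 in control arrays, a comparison chosen after the data were seen.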

How the data were processed

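Hippocampal RNA of 12 pools was hybridised to Affymetrix MG-U74B arrays. The deposited table gives log2 values per probe set, made by the authors with GCRMA in R 2.4.1, per the submitters' processing notes; that the scale is log2 was judged from the values (-1.05 to 13.3). Its settings and the build are not named in these sources. After 66 control probe sets were set aside, 12411 remained, of which 10581 had 1 gene symbol, 178 several and 1652 none in the platform annotation; 10550 matched RefSeq by gene identifier, and 0 symbols changed. Probe positions were not used here.

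A group-means model was fitted with limma 3.58.1 (lmFit, and eBayes with an intensity trend) in R 4.3.3, adjusted by Benjamini-Hochberg. It was tested on simulated data whose noise was independent between arrays. That simulation held no effect of the replicate number, so it does not cover the pairing described below. The members and lists were chosen with earlier results of these data known. Replicate numbers pair the arrays: deviations from group means correlated at 0.361 to 0.881 in all 18 same-number pairs from different groups, against -0.782 to 0.583 for other numbers. What a shared number marks is not in the labels. The number as a block, scaling, the filter, the trend and leaving out arrays were the alternatives. A listed gene is counted by its brightest tested probe set, and named if it passed or had the largest change of its list in arrays labelled mutant. The 3 most similar patterns and the most opposite pattern are named for each gene. The number of arrays limits the precision. Promoter windows are from RefSeq, GRCm38.p6.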

Additional observations from a re-analysis of the deposited data

How the results depend on the processing

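The kainate and genotype differences of Dot1l and Mllt10 were refitted under 20 alternatives, namely 12 fits that left out 1 array, 6 planned changes of block, scaling, filter or trend, and 2 fits of replicates 2 and 3 alone that were added after the data were seen. Under the replicate block, 37 probe sets passed for kainate in control arrays (10 without it), 23 in arrays labelled mutant (11), 9 for labelled mutant against control with saline (0) and 7 with kainate (4), and 0 for the difference of responses. With the block and quantile normalization the counts were 26, 21, 1 and 8. The block changed no call of Dot1l or Mllt10 in the tested comparisons. Replicates 2 and 3 alone gave 637, 596, 5 and 12, and with the block 791, 730, 9 and 15, and there Dot1l in arrays labelled mutant passed at 0.91 (limma adjusted p = 0.0344, or 0.0286 with the block). Over all alternatives its adjusted p ran from 0.0286 to 0.998. The cause of these shifts was not tested.

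When 1 array was left out, 4 to 14 probe sets passed in control arrays, 6 to 17 in arrays labelled mutant, 0 to 1 between genotypes with saline and 1 to 5 with kainate. The control count fell to 4 to 6 without any one control array other than saline replicate 2, and the labelled mutant count was 6 or 7 without replicates 2 or 3 of either labelled mutant group and 17 without labelled mutant kainate replicate 1. In these 12 fits the kainate difference of Dot1l ran from 0.55 to 0.88 in arrays labelled mutant and from 1.05 to 1.31 in control arrays, and that of Mllt10 from -0.86 to 0.25 and from -2.02 to -1.11. The genotype difference after saline ran from -0.12 to 0.14 for Dot1l, turning to 0.14 without control saline replicate 2 and to 0.11 without labelled mutant saline replicate 2. For Mllt10 it ran from -0.78 to 0.060, turning to 0.053 without control saline replicate 1 and to 0.060 without labelled mutant saline replicate 3. The turns of the Mllt10 kainate difference in arrays labelled mutant, to 0.25, 0.091 and 0.059, are given above. The differences of responses and the genotype differences after kainate kept their sign in all 20 fits. Arrays centred on their medians gave 1.03 for Dot1l in control arrays, where centring lowered every difference by the same amount. Both genes rest on 1 probe set each, and no second probe set checks them.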
